A study of Mus musculus with 419 samples.

Results

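The respiratory chain and the ATP synthase of the inner mitochondrial membrane are built from subunits encoded in both the nuclear and the mitochondrial genome. The nuclear genes taken here were the protein-coding autosomal genes of the GENCODE vM21 annotation with a symbol starting Nduf, Sdh followed by a to d, Uqcr, Cox4 to Cox8 or Atp5. The rule found 95 genes with 94 symbols, and 88 of them passed a filter on low values, out of 11012 autosomal genes that passed. The 7 others, Cox4i2, Cox6a2, Cox6b2, Cox7b2, Cox8b, Cox8c and Ndufa4l2, are complex IV isoforms known from heart, muscle, testis, lung or other differentiated tissue, and their mean scaled values were 0.0072 to 0.92 per cell.

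The cells were G1 embryonic stem cells of the female mouse hybrid line F1-21.6, which carries 1 chromosome set of strain 129Sv and 1 of Cast/EiJ. They were grown on laminin-511 without feeder cells, in serum medium with leukemia inhibitory factor, and carry no genetic or drug treatment named in the labels. Total RNA of each of 419 cells was sequenced by RamDA-seq, which covers whole transcripts and uses no molecular identifiers, and the values were deposited as 1 table for the 129 and 1 for the CAST allele. Since separate cultures are not named in the labels, all cells count as 1 sample, and no test between groups was made. Spreads given as SD are over 5 sequencing lanes with 80 to 88 cells each, and are not a spread between biological replicates.

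Complex I (NADH dehydrogenase) and complex II (succinate dehydrogenase) pass electrons to ubiquinone, complex III passes them on to cytochrome c, and complex IV (cytochrome c oxidase) passes them to oxygen. Complexes I, III and IV pump protons, and complex V, the ATP synthase, lets them flow back to make ATP. Complex II is built from nuclear genes only, whereas the others each also hold subunits made inside the mitochondrion. Pluripotent stem cells are known for using glycolysis strongly beside respiration.

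All 8 markers of embryonic stem cells listed for the check passed the filter, and their summed value had a median of 2658 per cell. Of the markers of other types, 1 of 5 for primitive endoderm, 3 of 5 for trophectoderm, 2 of 5 for fibroblast, 1 of 7 for striated muscle, 2 of 5 for germ line and 0 of 5 for two-cell-like cells passed. The deposited total per cell over both alleles ranged from 698363 to 1477656 with a median of 925852, and ribosomal RNA rows took 8.68% to 23.8% of it. These totals were set by the authors' scaling, so the depth in reads is unknown and a value is a scaled estimate rather than a count of molecules.

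The 88 genes were expressed well above most genes of these cells, with medians that differed by complex and role. Their median level was 33.7 ± 1.28 (SD over 5 lanes) scaled value per cell per kb of transcript, against 5.92 for all 11012 genes. In that comparison 79 of the 88 (89.8%) lay above the all-gene median, which 50% of all genes exceed by definition. With all transcript rows of each gene summed, in place of the row with the largest value, the members' median was 54.1. Median levels per kb were 23.3 for the 7 core subunits of complex I and 26.5 for its 27 accessory subunits. They were 48.7 for the 4 subunits of complex II, 64.2 for the 8 of complex III and 141 for the 11 measured subunits of complex IV. In complex V they were 107.95 for the 5 subunits of the catalytic F1 head and 71.8 for the 12 entries of the membrane part and stalk. The ratio of the median complex V subunit to the median complex I subunit was 3.37 ± 0.305 per kb. Assembly factors, which help build a complex but are not part of it, lay far lower, with 6.59 per kb for the 8 of complex I and 3.32 for the 4 of complex II.

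**Figure D1:**
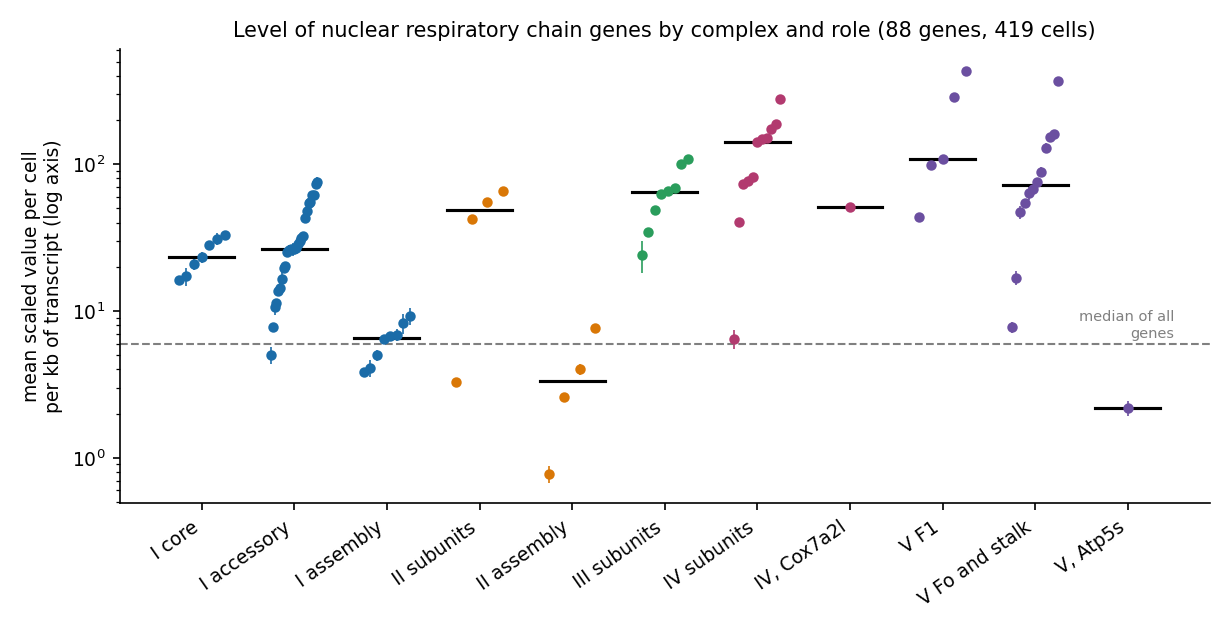
Mean scaled value per cell per kb of transcript on a log axis, for the 88 measured genes by complex and role. Points are genes with the SD over 5 lanes, black bars are group medians, and the dashed line is the median of all genes, 5.92. Subunits of complex IV have the highest median, 141, and the assembly factors of complexes I and II lie near or under the dashed line.

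Among the core subunits of complex I, which carry the flavin and iron-sulfur centres, levels ran from 16.2 ± 0.98 per kb for Ndufv1 to 32.7 ± 2.31 for Ndufv2. The scaled value of Ndufv2 per cell had a lowest value of 2.12, a median of 29.5 and a highest value of 60.3. Accessory subunits spread more widely, from 5.04 ± 0.656 per kb for Ndufc1 to 76.2 ± 6.28 for Ndufb5. With all rows summed the highest accessory subunit was Ndufab1 at 93.5. The low value of Ndufc1 is uncertain, because the transcript row used held 38.2% of the gene's value and all its rows together gave 35.0 per kb. Of the assembly factors, Ndufaf8 was highest at 9.25 ± 1.25 per kb and Ndufaf5 lowest at 3.83 ± 0.282.

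In complex II, Sdha, the flavoprotein subunit, was at 65.8 ± 1.17 per kb, with a lowest cell of 48.7, a median of 191.8 and a highest of 327 in scaled value. The iron-sulfur subunit Sdhb was at 42.5 and the membrane anchor Sdhd at 55.0. The other anchor, Sdhc, was at 3.27 ± 0.186 per kb in a row of 3171 nt, and at 17.2 with all its rows summed. The order within the complex therefore placed Sdhc last by both measures. The assembly factors ran from Sdhaf3 at 0.776 per kb, the lowest of all 88, to Sdhaf2 at 7.68.

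Complex III ranged from 24.1 ± 5.91 per kb for Uqcrb, a small ubiquinone-binding subunit, to 109 ± 4.81 for Uqcr11. Uqcrc1, a large core protein, was at 101 ± 4.23. With all rows of a gene summed their order turned, with Uqcrc1 at 139.8 and Uqcr11 at 110.3. In complex IV, Ndufa4, once assigned to complex I and now counted as a subunit of cytochrome c oxidase, was highest at 276.8 ± 13.0 per kb by the largest row of each gene. With all rows summed, Cox4i1 was at 333.1 and Ndufa4 at 323.9. Its scaled value was 30.1 in the lowest cell, 123 in the median and 212 in the highest, with a value above 0 in every cell. The lowest measured subunit was the muscle isoform Cox7a1 at 6.48 ± 0.971.

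Isoform pairs of complex IV were split sharply. Cox4i1, the common form of subunit 4, was at 188 per kb and its lung form Cox4i2 at 0.206, which was above 0 in 11.2% of cells. Cox6a1 was at 149 per kb and the muscle form Cox6a2 was above 0 in 0.239% of cells. Cox8a was at 141 per kb, while Cox8b and Cox8c were at 0.124 and 0.454. Ndufa4 exceeded Ndufa4l2 (0.364 per kb), a form known from low oxygen. The contrasts were smaller for Cox6b1 over the testis form Cox6b2, 40.3 against 2.29 per kb (17.6-fold), and for Cox7a2 over Cox7a1, 81.8 against 6.48 (12.6-fold). Cox7a2l, a relative that links complexes into supercomplexes, was at 51.2 ± 2.21.

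The F1 head subunits Atp5b and Atp5a1 of complex V had the highest scaled values per cell of all members before division by length. Per kb, Atp5g3 lay between them. Atp5b, the beta subunit, was at 429 ± 9.75 per kb, with scaled values of 357, 834 and 1189 in the lowest, median and highest cell. Atp5a1, the alpha subunit, was at 288 ± 6.33 per kb, with 144, 723 and 1077. No cell lacked either of them. The lowest of the F1 head was the delta subunit Atp5d at 43.9 ± 2.69. Of the 3 genes that encode the identical mature proton-carrying c subunit, Atp5g3 was at 370 ± 22.1 per kb, Atp5g1 at 160 ± 9.29 and Atp5g2 at 47.3 ± 4.88. The gaps between them were larger than the lane spread, but 87.7% of the Atp5g2 row and 67.3% of the Atp5g1 row is shared with other genes, mainly the pseudogenes Gm10175 and Gm10039, whereas the Atp5g3 row shares none. A second gene ID with the symbol Atp5o, which overlaps Donson, gave the lowest entry of the membrane part, 7.74, and Atp5s, a factor coupled to the synthase, was at 2.17 ± 0.256.

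Summed over the 88 genes, without division by length, a cell held a mean of 4995 ± 107.7 scaled value, or 0.540% of its total. The sum was 1611 in the lowest cell, 5055 in the median and 6460 in the highest, with a coefficient of variation of 11.0% over cells. Complex V held 50.5% ± 0.446 of it, complex I 16.8% ± 0.283, complex IV 16.4% ± 0.333, complex III 9.20% ± 0.0986 and complex II 7.06% ± 0.0695. Without Atp5a1 and Atp5b, complex V held 28.6% and complex I 24.3%. Between cells the share of complex V ran from 46.7% to 54.0% in the middle 90% of cells, and that of complex II from 5.67% to 8.49%. Relative to its mean, the share of complex V varied least (coefficient of variation 4.73%) and that of complex II most (13.2%). Complexes I, III and IV had coefficients of 7.98%, 9.84% and 10.1%. In percentage points the order differed, with an SD over cells of 2.38 for complex V, 1.65 for IV, 1.34 for I, 0.94 for II and 0.91 for III. Of the 88 genes, 41 had a value above 0 in every cell, and the least often seen, Ndufaf6, in 251.

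Allele shares of the nuclear respiratory chain centred on equality. For 73 genes with allele information the median 129 share was 49.2% ± 0.658, against 50.0% for all 10468 such genes. At or below 40% were 13 of 73 (17.8%), against 12.8% of all genes, and at or above 60% were 4 (5.48%), against 10.6%. Together 17 genes (23.3%) were beyond either limit, against a background of 23.4%. Among rows under 1000 nt, which hold most members, 13 of 47 (27.7%) were beyond a limit, against 36.7% of all genes with such rows. Without members that share over 20% of their sequence with other genes, 11 of 49 were beyond a limit. Of the 17, 8 were among the 20 accessory subunits of complex I with allele information, the largest role group. The 6 subunits of complex III with allele information ranged from 49.4% to 58.3%, inside the limits. The groups are small, and a difference between them was not tested.

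The strongest shift towards CAST was in Atp5e, the epsilon subunit of the F1 head (chromosome 2, 174461072 to 174464105, mm10), at 16.4% ± 1.69 129. In 21.7% of cells only its CAST allele was seen, and in 0% only the 129 allele. Cox7a2 followed at 22.8% ± 1.501, with lanes from 20.7% to 24.0%, and Ndufc1 at 23.0% ± 3.96. Atp5mpl, a small subunit of the membrane part, was at 26.6% ± 3.71. It lies on chromosome 12 at 111961375 to 111966977 (mm10), in the region beyond 80 Mb whose measured genes had a median of 30.2%, and its share over cells followed that of the other genes there with a Spearman correlation of 0.244 (419 cells). The others at or below 40% were Ndufb2 (32.9%), Atp5g2 (34.2%), Ndufb8 (36.3%), Ndufs5 (36.4%), Cox7c (36.7%), Ndufa5 (37.8%), Atp5s (39.5%), Ndufv3 (39.5%) and Ndufa11 (39.8%). With all rows summed, Ndufb2, Ndufb8 and Ndufv3 were at 41.2%, 40.7% and 43.0%, inside the limits.

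Towards 129 the strongest was Sdhd (chromosome 9, 50596357 to 50603812, mm10), a membrane anchor of complex II, at 77.6% ± 1.17, with lanes between 75.9% and 79.0%. Only its 129 allele was seen in 13.1% of cells and only the CAST allele in 0.239%. The assembly factor Ndufaf2 was at 68.7% ± 4.11, the accessory subunit Ndufa12 at 62.0% ± 3.11 and Sdhc at 61.7% ± 2.68. Thus both anchors of succinate dehydrogenase were above 60%, while Sdha was at 43.7% ± 0.323 and Sdhb at 47.0% ± 3.11. Summed over all rows, Sdhc was at 59.1%. More than 20% of the row is shared with other genes for Ndufa12, Ndufb2, Atp5g2, Cox7c, Ndufs5 and Ndufa11, so their shares are uncertain, and for Atp5e, Sdhd and Ndufaf2 none is.

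**Figure D2:**
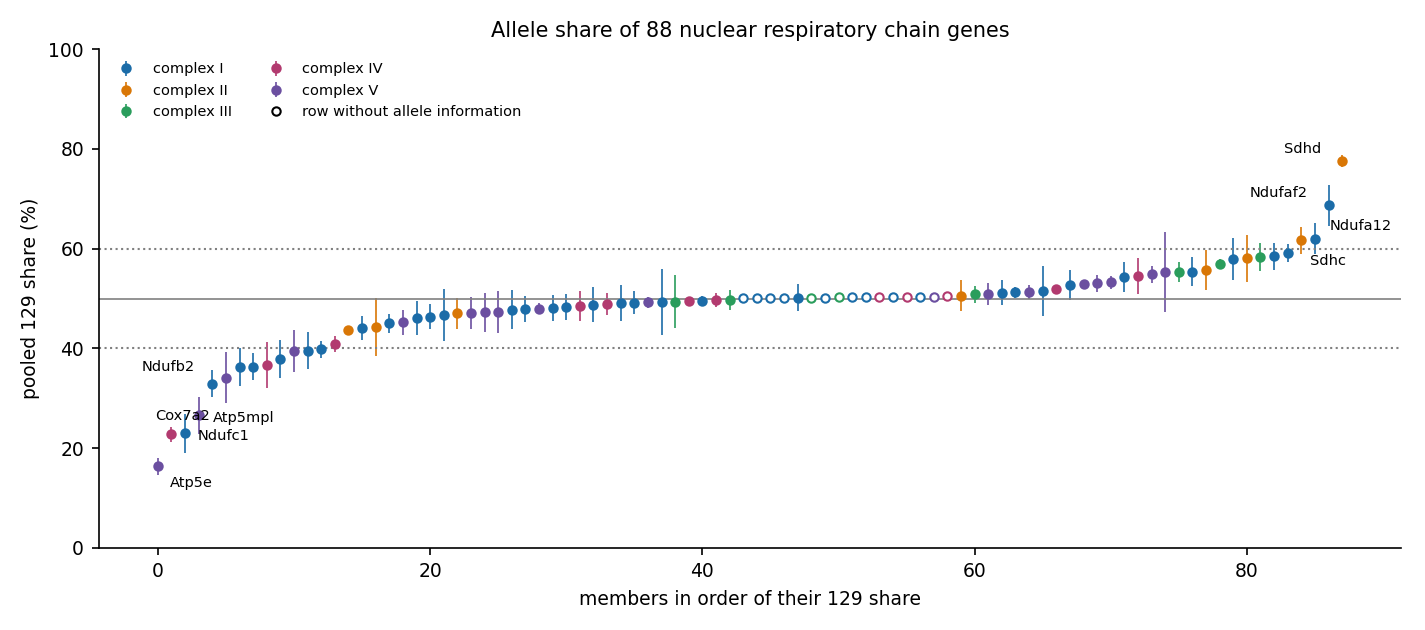
Pooled 129 share in percent of the 88 measured genes in order of their share, with the SD over 5 lanes as bars and dotted lines at 40% and 60%. Open points are 15 rows without allele information, which all lie at 50.1% to 50.5%. Atp5e at 16.4% and Sdhd at 77.6% are the ends of the order.

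In 15 of the 88 genes (17%) the row carried no allele information, against 4.94% of all genes. This means that both tables held the same or nearly the same value in each cell apart from a factor per cell. In Atp5l the squared allele difference was 0.458 of its total, under the limit of 0.5 but not near 0. The members' rows are short, with a median of 683 nt against 2914.5 nt, and among rows under 1000 nt the share was 20.3% (12 of 59) against 24.1% of all such genes. Among rows of 1000 nt or more it was 10.3% (3 of 29) against 2.96%. These 15 were Atp5l, Cox6b1, Cox6c, Cox7a1, Ndufa2, Ndufa7, Ndufa9, Ndufaf1, Ndufb4, Ndufb5, Ndufb9, Ndufb10, Ndufs3, Uqcrh and Uqcrq. Their shares near 50% were left out of all allele statements.

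Intrinsic noise measures how far both alleles of a gene differ within a cell, and the residual is the log2 distance from the running median of genes with a like mean. For 56 members the median residual was -0.45 ± 0.081, against 0 for the 6030 genes measured. At or below -0.5 lay 25 of the 56 (44.6%), against 22.9% of all genes, and at or above 0.5 lay 5 (8.93%), against 20.5%. By complex the median residual was -0.50 for complex I, -0.63 for II, -0.74 for III, -0.68 for IV and -0.19 for V. Low residuals were not particular to the members. The median was -0.97 for cytosolic ribosomal protein genes, -0.71 for the citrate cycle and -0.58 for cytochrome c and assembly. It was -0.56 for mitochondrial ribosomal protein genes, -0.40 for glycolysis, -0.20 for the proteasome and 0.22 for the nuclear regulators. Among members with a mean of 20 or more from each allele the median was -0.29 over 21 members. Length was not matched in this comparison, and its part in the difference was not tested.

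The lowest residuals were those of Atp5g1 (-1.77), the acyl carrier protein Ndufab1 (-1.72), the accessory subunit Ndufc2 (-1.57), the assembly factor Ndufaf7 (-1.51) and Cox7a2 (-1.47). Sdha, with an intrinsic noise of 0.0758 at a mean of 191 per cell, had -1.37. Reads of Atp5g1 and Ndufab1 may be divided among copies, since 67.3% and 44.6% of their rows are shared, whereas Ndufc2 shares none. The highest residuals were those of Cox6a1 (0.94), Ndufa11 (0.82), Atp5g2 (0.74), Atp5g3 (0.65) and Atp5mpl (0.55). Here too rows are shared with other genes, by 87.7% for Atp5g2, 28.2% for Ndufa11 and 23.8% for Cox6a1, whereas Atp5g3 and Atp5mpl share none. The c subunit genes of the ATP synthase thus stood at both ends, with a low residual for Atp5g1 and high ones for Atp5g2 and Atp5g3. The part of shared sequence in these residuals was not tested.

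**Figure D3:**
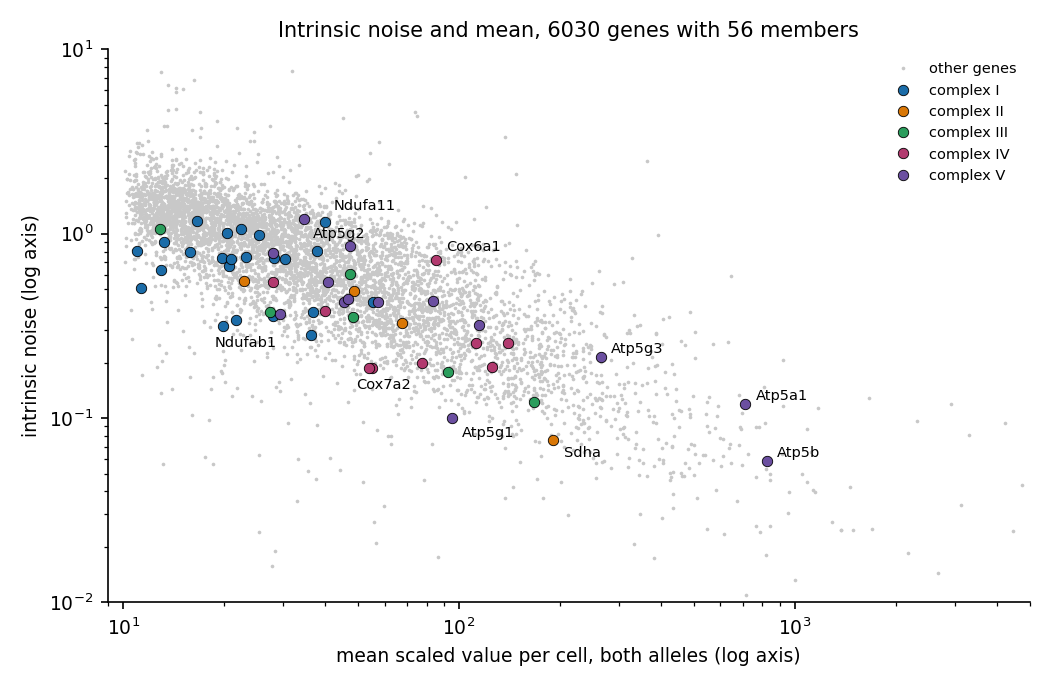
Intrinsic noise against the mean scaled value per cell over both alleles, both on log axes, for 6030 genes (grey) and 56 members coloured by complex. The axes leave out genes beyond their limits. Most members lie in the lower part of the cloud at their mean, such as Atp5g1 with a residual of -1.77, and Cox6a1 (0.94) lies above it.

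Shared noise, in which both alleles move together between cells, was below 0 for 49 of 56 members (87.5%), against 57.2% of all genes, with a median of -0.075 against -0.026. A value below 0 means that a cell with more of 1 allele than average tended to have less of the other. The lowest were Ndufb7 (-0.481) and Ndufa11 (-0.458), both with an intrinsic noise above 1. No source used here names the method of allele assignment, and its part in these values was not tested.

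Members of the respiratory chain varied together over cells. The median Spearman correlation of a member with the sum of the other members over 419 cells was 0.21 ± 0.034. For all 11012 genes with the summed members the median was 0.018. At or above 0.2 were 49 of 88 (55.7%), against 9.67% of all genes with the summed members. This was not particular to the members, since 61 of 80 cytosolic ribosomal protein genes also reached 0.2 with that sum (median 0.25). Proteasome genes did so in 17 of 36 cases (median 0.20) and mitochondrial ribosomal protein genes in 27 of 78 (median 0.16). Among genes with a mean of 50 or more per cell, where values are less sparse, it was 19 of 21 (90.5%) against 26.4%. All these correlations share the scaling of each cell to a common total, and the sum is weighted towards Atp5b and Atp5a1.

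Atp5g1 was the most closely tied, with 0.62 (0.51 to 0.70 over lanes), followed by the complex IV subunits Cox8a (0.51) and Cox5a (0.50), Uqcr11 of complex III (0.48) and Atp5a1 (0.45). Atp5g3 was at 0.44 and Atp5g2 at 0.12, so the c subunit genes differed here too. The lowest were Atp5s (-0.18), the second Atp5o entry (-0.04), Sdhaf4 (-0.03), Ndufaf6 (-0.01) and Ndufa12 (0.02). All of these had means of 11.1 or less per cell. Of single pairs the closest were Cox5a with Atp5g1 (0.61), Atp5g1 with Cox8a (0.51), Cox5a with Cox8a (0.48), Atp5g1 with Uqcr10 (0.46) and Atp5g1 with Uqcr11 (0.45). The rows of Cox5a and Atp5g1 share 47.2% and 67.3% of their sequence with other genes, and Cox8a shares none. The strand setting of the library is not given in the labels, so reads of Atp5a1, Cox4i1, Cox5a and Ndufa11 cannot be told apart from those of the antisense genes Haus1, Emc8, Gm26631 and Vmac where they overlap.

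Pairs within and across complexes were compared next. Among members with a mean of 50 or more, pairs from the same complex had a median correlation of 0.20 and pairs from different complexes 0.15, against 0.028 for all pairs of genes at that mean. For all 88 members the order was the opposite, 0.051 within a complex and 0.066 across, and neither difference was tested. Sums of 2 complexes correlated with a median of 0.49 ± 0.087. The closest were complexes III and V (0.58), I and V (0.54), I and III (0.53) and I and IV (0.51), and the weakest were II and IV (0.17) and II and III (0.34). With every member at equal weight the median was 0.35.

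The alleles give a second reading of the same relation. The sum of 129 values of a complex and the sum of CAST values of another correlated with a median of 0.21 over 20 pairings (0.060 to 0.33). Sums of the same allele gave 0.24 over 20 pairings (0.087 to 0.38). For the 129 and CAST sums of the same complex the correlation was only -0.031 to 0.094 over the 5 complexes. The median was thus 0.017 between the alleles of 1 complex and 0.21 between the alleles of different complexes.

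**Figure D4:**
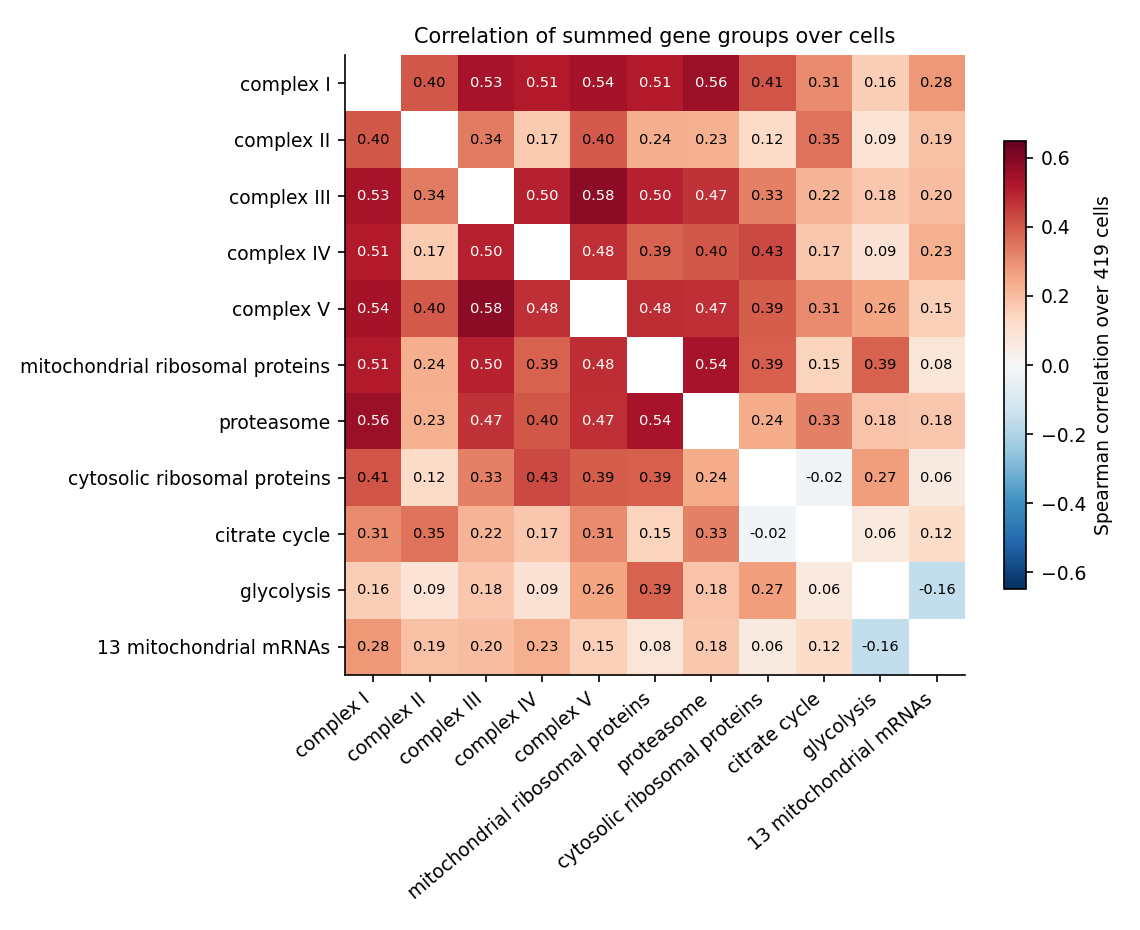
Spearman correlation over 419 cells between summed scaled values of complexes I to V, other gene lists and the 13 mitochondrial mRNAs, with each value printed. Complexes I, III, IV and V correlate at 0.48 to 0.58 with each other, complex II at 0.17 to 0.40 with the rest, and the mitochondrial mRNAs at 0.15 to 0.28 with the nuclear complexes.

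The summed members also moved with other gene groups. They correlated at 0.56 with 36 proteasome genes, at 0.55 with 78 mitochondrial ribosomal protein genes and at 0.46 with 80 cytosolic ribosomal protein genes. They correlated at 0.35 with 30 genes for cytochrome c and assembly, at 0.35 with 12 citrate cycle genes and at 0.22 with 15 glycolysis genes. Complex I correlated with the proteasome at 0.56, against 0.40 to 0.54 with the other complexes. The other complexes had 0.23 to 0.47 with the proteasome. Complex II, the enzyme shared with the citrate cycle, had its weakest tie to glycolysis (0.088) and cytosolic ribosomal proteins (0.12), and correlated at 0.35 with the citrate cycle, where the other complexes had 0.17 to 0.31. The lane ranges of these values overlap, such as 0.27 to 0.45 for complex II and 0.24 to 0.40 for complex V with the citrate cycle.

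Among the 10 genes outside the list with the highest correlation with the summed members were Tubb2b (0.52), Snrpd2 (0.51), Wdr5 (0.49), Aes (0.46), Cyc1 (0.46), Vdac1 (0.46), Set (0.46), Nanog (0.45) and Psmb3 (0.45). Of these, Cyc1 encodes cytochrome c1 of complex III, whose symbol the rule does not take, and Vdac1 the channel of the outer mitochondrial membrane. Nanog is a pluripotency factor. Of the 30 measured genes for cytochrome c and assembly, only Cyc1 and the copper factor Coa6 (0.22) reached 0.2.

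Markers of cell state moved with the summed members. The sum of the 8 stem cell markers, 16.0 to 5645 per cell, correlated with them at 0.43, and each marker on its own at 0.17 (Sox2) to 0.45 (Nanog). The sum of the 5 trophectoderm markers, 0 to 6767 per cell and mostly Krt8, correlated at -0.29, and the other marker lists at -0.17 (striated muscle) to 0.033 (germ line). In the 41 cells lowest in stem cell markers (sum up to 1072) the summed members had a median of 4375, against 5088 in the other 378, with overlapping ranges of 1611 to 5384 and 3594 to 6460. Without these cells, left out after the data were seen, the median correlation between complexes was 0.42 and that of a member with the others 0.18. Summed members correlated with the number of rows above 0 per cell at -0.16, with the ribosomal RNA percent at -0.17 and with the deposited total at 0.0013.

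Nuclear regulators of the respiratory chain were measured in 12 of 13 cases, and Ppargc1a, the inducible coactivator, had no row above 0. Of these 12, Esrrb, an orphan nuclear receptor and pluripotency factor, was by far the highest at 120 per kb. It also had their highest correlation with the summed members, 0.33. Esrrb is also among the 8 stem cell markers, which had 0.17 (Sox2) to 0.45 (Nanog). Its relative Esrra was at 1.13 per kb and -0.02. Gabpa, the DNA-binding part of nuclear respiratory factor GABP, was at 15.4 per kb and 0.23, and its partner Gabpb1 at 6.22 per kb and -0.0081. Nrf1 was at 14.7 per kb (0.13), Yy1 at 14.0 (0.087) and the coactivator Pprc1 at 22.9 (0.20), whereas Ppargc1b was at 1.17 (0.11). Of the factors of the mitochondrial genome, Tfam was at 8.78 per kb (0.20), Tfb1m at 13.4 (0.20), Tfb2m at 4.89 (0.087) and the RNA polymerase Polrmt at 5.68 (0.076).

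Promoters of the members were searched for motifs of 3 of these factors, because the genes moved together. RefSeq promoter windows (GRCm38.p6, 250 bases before to 50 after the start) matched 77 of 94 symbols, of which 74 passed the filter. The looser NRF1 motif, GCGCA and GCGC with any base between them, was in 21 of 74 (28.4%) against 5.29% of 25748 genes, and its strict palindrome, with T as that base, in 7 (9.46%) against 1.08%. The ETS motif CCGGAAG, bound by GABP, was in 21 (28.4%) against 10.1%, and the YY1 motif AAGATGG in 12 (16.2%) against 7.33%. Both strands were searched. Unlike the 74 members, the 25748 genes were not limited to those that passed the filter on low values. The part of this unlike choice in the percentages was not tested. Genes with any of the looser NRF1, ETS or YY1 motifs (46 of 74, 62.2%, against 20.4%) and those with none had the same median correlation with the other members, 0.21. Taken singly, it was 0.24 with and 0.20 without the strict NRF1 palindrome, 0.23 and 0.20 for the looser form, 0.20 and 0.21 for ETS, and 0.18 and 0.21 for YY1. A match describes letters in this window and is not evidence of binding. The stretches below show matches in genes of different complexes, 5′ to 3′ on the gene's strand, with the motif in capitals, for the looser NRF1 form (Cox6a1, Ndufa11 and Ndufs5) and the ETS motif (Uqcr11 and Uqcrh, the latter on the opposite strand).
Cox6a1: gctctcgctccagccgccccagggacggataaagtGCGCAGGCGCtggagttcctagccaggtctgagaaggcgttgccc
Ndufa11: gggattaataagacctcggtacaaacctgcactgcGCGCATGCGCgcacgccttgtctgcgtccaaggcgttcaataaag
Ndufs5: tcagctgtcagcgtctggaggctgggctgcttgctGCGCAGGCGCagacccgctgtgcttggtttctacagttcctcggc
Uqcr11: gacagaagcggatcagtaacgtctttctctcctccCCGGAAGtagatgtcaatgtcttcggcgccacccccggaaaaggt
Uqcrh: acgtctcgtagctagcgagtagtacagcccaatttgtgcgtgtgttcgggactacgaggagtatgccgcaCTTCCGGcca
These stretches lie at chr5:115349031-115349110 (minus strand), chr17:56717667-56717746 (plus), chr4:123718240-123718319 (minus), chr10:80406843-80406922 (minus) and chr4:116075071-116075150 (minus). Ndufa11 holds the strict palindrome. The correlation with the other members was 0.48 for Uqcr11, 0.33 for Uqcrh, 0.32 for Cox6a1, 0.24 for Ndufa11 and 0.19 for Ndufs5.

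The 13 mRNAs of the mitochondrial genome had values above 0 in the CAST table only. Their sum had a mean of 8942 ± 566 per cell, 0.966% of the total, with 13.8 in the lowest cell, 9027 in the median and 17138 in the highest. It varied more than the nuclear sum, with a coefficient of variation of 25.3%. Per kb, the oxidase subunit mt-Co1 was highest at 2077, followed by mt-Nd1 at 1139, mt-Co2 at 1081, mt-Nd5 at 689, mt-Cytb at 653 and mt-Nd4 at 596. The synthase subunit mt-Atp6 was at 455, mt-Co3 at 419, mt-Nd2 at 271, mt-Atp8 at 258, mt-Nd6 at 149, mt-Nd4l at 81.3 and mt-Nd3 at 10.4. All but the 2 lowest thus lay above the median of every nuclear group.

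Nuclear and mitochondrial transcripts of the chain were weakly tied. The summed members and summed mitochondrial mRNAs correlated at 0.25 over 419 cells, with 0.11 to 0.39 over lanes. Within complexes, the nuclear sum and the mitochondrial mRNAs of the same complex correlated at 0.24 for complex I, 0.28 for III, 0.23 for IV and 0.12 for V, for which the lanes ranged from -0.084 to 0.26. Of single members 6 of 88 (6.82%) reached 0.2 with the mitochondrial mRNAs, against 0.345% of all genes, led by Uqcrb (0.31) and Atp5l (0.27), and 0 were at or below -0.2, against 0.127%. The rows of Uqcrb and Atp5l share 58.2% and 85.4% of their sequence with other genes. Uqcrb also differed between lanes, with a mean of 12.9 ± 3.16 per cell. The mitochondrial mRNAs correlated at 0.076 with mitochondrial ribosomal protein genes, 0.18 with the proteasome and -0.16 with glycolysis.

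In 9 cells of 4 lanes mitochondrial mRNAs were nearly missing, with sums of 13.8 to 708 against 2706 or more in the other 410. Their nuclear members were present, with sums of 2485 to 5156 and a median of 4284, and 8 of the 9 lay below the median of all cells. Complex I had a median of 663 in them against 848 in the others, and complex IV 799 against 825, with overlapping ranges. They held a median of 30340 rows above 0, against 29412, and 16.2% ribosomal RNA, against 15.3%. Their summed stem cell markers had a median of 2310, against 2671. Whether the low sums reflect the cells or the handling of their reads was not tested. A different cell, of lane 4, had the lowest nuclear sum, 1611, with a mitochondrial sum of 6912 and 21872 rows above 0. Without these 10 cells, left out after the data were seen, the correlation of nuclear with mitochondrial sums was 0.22 and the median between complexes 0.48.

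**Figure D5:**
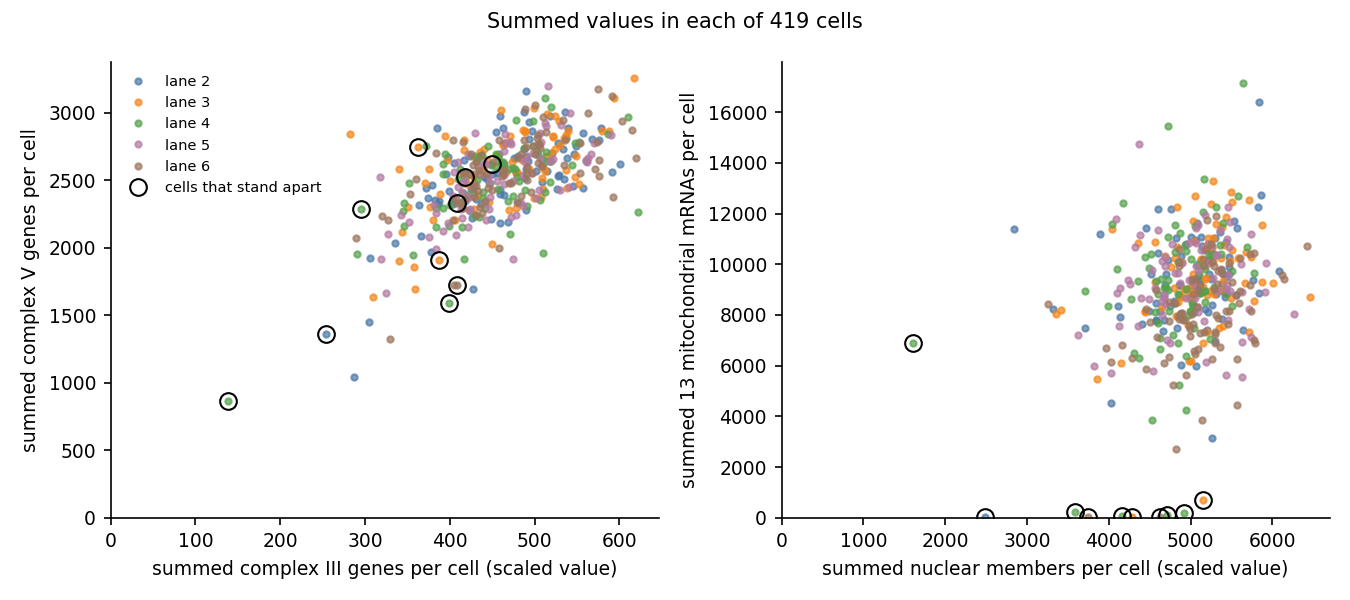
Left, summed scaled values of complex III and complex V genes in each of 419 cells, coloured by lane; right, summed nuclear members and summed 13 mitochondrial mRNAs. Circles mark the 10 cells that stand apart, 9 with mitochondrial sums of 708 or less and 1 with a nuclear sum of 1611. The left panel shows the closest pair of complexes (correlation 0.58).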

How the data were processed

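The 2 tables were deposited by the authors as whole numbers per Ensembl transcript and cell. From the near-common totals per cell, the deposited unit was read as a score: allele estimates scaled and rounded by the authors. They are not raw counts, so no count test was used. Per the submitters' processing notes, Bowtie 1.1.2 and mm10 were used, in roles that the notes leave unnamed; no source used here names the allele assignment tool. Of 117762 rows, 116919 matched GENCODE vM21, and 0 columns were unmatched.

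Cells were scaled to a common total. A gene was its row with the largest pooled value, which held a median of 87.0% of the gene's value over the 88 members and under 50% in 12. The filter asked for a pooled value of 1000 and a value above 0 in 10% of cells. A row whose squared allele difference, after a factor per cell, was under 0.5 of its total counted as without allele information. The 129 share is the pooled 129 value over both. Noise needed a mean of 5 per allele and a share of 10% to 90%, and residuals used a running median over 201 genes. Shared sequence is the percent of a row's 31-mers found in other genes, with a limit of 20%.

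The named genes are the ends of each role group per kb, of noise and of correlation, all shares beyond 40% or 60%, isoform families, regulators, mitochondrial mRNAs and the 10 most alike genes. Genes named beside these, such as Sdhb, Uqcrc1, Ndufb7 and Coa6, were chosen after their values were seen. The members and lists were chosen with earlier results of these data known. The calculations were tested on simulated data. No doublet caller was run. Python 3.11.15, numpy 2.4.6, pandas 2.3.3, scipy 1.17.1 and matplotlib 3.10.9 were used. Some single genes are not reported here.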

Additional observations from a re-analysis of the deposited data

How the results depend on the processing

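Values were called unchanged when they moved by less than the SD over lanes. All 17 results stayed unchanged without the cells that stand apart and without each lane, but these checks could hardly come out otherwise. With those cells or a lane left out most cells remain, so a value tends to move by less than single lanes differ. The checks therefore do not show whether the results are stable between lanes or against the leaving out of cells. With all rows of a gene summed, the median level was 54.1 per kb, the ratio of complex V to I 2.67, the median correlation of a member with the others 0.27, and complexes I, II, III and V held 20.5%, 6.04%, 8.44% and 48.8%. Without members sharing over 20% of their sequence, the level was 31.2, the ratio 4.44, 11 genes were beyond the allele limits, and complexes I, II, IV and V held 15.8%, 9.06%, 11.1% and 54.8%. Without the filter the level was 31.2. With 20 or more from each allele the noise residual was -0.29. Values as deposited gave a median correlation with the others of 0.25. Between complexes the median was 0.63 as Pearson correlation of log2(value + 1), 0.35 with equal weight and 0.21 across alleles. Equal weight gave 0.39 between complex III and its mitochondrial mRNA. Without Atp5a1 and Atp5b, complexes I to V held 24.3%, 10.2%, 13.3%, 23.7% and 28.6%. Without the cells lowest in stem cell markers, complex II held 6.97%. Equal weight, the leaving out of these genes and cells were chosen after seeing the data. The cause of these moves was not tested. Depth in reads is unknown, so low members such as Sdhaf4 limit what correlations show. No paired analysis was possible because all cells form 1 group.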

Other observations

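The members on the X chromosome, which the rule leaves out, had values above 0 in the CAST table only. Ndufa1, an accessory subunit of complex I, was at 144 per kb, with 12.7, 60.9 and 109 scaled value in the lowest, median and highest cell. Ndufb11, of the same complex, was at 43.7 per kb, with 6.36, 39.5 and 73.2. Cox7b, of complex IV, was at 189 per kb, with 18.8, 102.3 and 171.5, and all of them were above 0 in every cell. Ndufa1 thus lay above the highest autosomal subunit of complex I, Ndufb5 at 76.2 per kb.

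When every member had equal weight, so that Atp5b and Atp5a1 no longer set the sum, the genes most alike included Aes (0.45), Snrpd2 (0.44), Tubb2b (0.44), Hspe1 (0.43), Eif4e2 (0.43), Wdr5 (0.42), Cyc1 (0.42), Psmb3 (0.41) and Psmd3 (0.41). Hspe1, the mitochondrial co-chaperonin, the translation gene Eif4e2 and the proteasome gene Psmd3 were in this order and not in the other. The equally weighted members correlated with the mitochondrial mRNAs at 0.31, against 0.25 with the sum.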
